A study of Mus musculus with 22 samples.

Results

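The genes described here are Tnf, which encodes the cytokine tumor necrosis factor (TNF), and 6 partners: the receptor genes Tnfrsf1a and Tnfrsf1b, the protease gene Adam17, the adaptor genes Traf1 and Traf2, and Zfp36, which encodes the RNA-binding protein tristetraprolin. They were chosen by gene symbol, with earlier results of these data known. All 7 were found among the 23953 genes of the expression table, on 10 of its 31641 transcript rows. Around their start sites, 393 of the 505760 chromatin peaks in all 12 peak lists had their centre within 20 kb.

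The series asked how mutant huntingtin acts inside myeloid cells, in Huntington's disease, where the glutamine tract of that protein is too long. BV2 cells, a mouse microglial line, were transduced with a lentivirus (pCDH-CMV-MCS-EF1-Puro) that carried a human huntingtin N-terminus of 128 glutamines (mutant fragment, Nmu), one of 15 glutamines (wild-type fragment, Nwt) or no insert (empty vector, pCDH). All 3 are transduced BV2 lines made with the same vector, so they also share the virus and the puromycin gene, and no further treatment was given. Each gave 2 RNA libraries, 1 at 24 h and 1 at a second time that the labels give as 48 h and the header of the expression table as 6 h, so no order of the times is assumed. Each line also gave 1 chromatin immunoprecipitation library, labelled 24 h, for the factors C/EBPα, C/EBPβ and PU.1 and for H3K4me2, a histone mark of promoters and enhancers. Primary cells came from Q175/175 mice (mutant), whose huntingtin gene carries an expanded repeat on both copies, and from Q7/7 mice (wild type), with 1 library of sorted CD11b+ CD45low adult brain microglia and 1 of bone marrow derived macrophages per genotype. The labels used here give no ages and do not say how many mice entered a library.

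TNF is made as a membrane protein, cut from the cell surface by ADAM17 and bound by 2 receptors. TNFR1, the product of Tnfrsf1a, is found on most cells and carries a death domain, while TNFR2, the product of Tnfrsf1b, has no death domain and is found mainly on immune and endothelial cells. TRAF2 links both receptors to NF-kB and JNK signalling, TRAF1 binds TRAF2 and is itself induced by NF-kB, and tristetraprolin binds AU-rich elements in the Tnf mRNA and speeds its decay. Microglia and macrophages are major sources of TNF in the brain and in the periphery.

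Expression is given in RPKM, reads per kilobase of transcript and per M (mega) of mapped reads. Implied depth was 10.8 to 14.0 M reads in BV2 libraries and 28.8 to 47.8 M in primary libraries. All 6 general macrophage markers of the list used here reached 1 RPKM in every library. The summed level of 6 microglial markers was 2983 and 3514 RPKM in microglia, 57.4 to 92.7 RPKM in macrophages, where Sall1 was at 0, and 25.3 to 118 RPKM in BV2 cells, where 1 of the 6 reached 1 RPKM in all libraries and Siglech was at 0. BV2 cells thus lacked most defining microglial markers at this depth, and a bulk level cannot separate fewer expressing cells from less RNA per cell.

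Tnf itself stood higher with the mutant fragment. With the mutant fragment it had 15.9 RPKM at 24 h and 18.3 RPKM at the other time, against 3.04 and 3.11 RPKM with the wild-type fragment and 1.86 and 3.30 RPKM with the empty vector. Both mutant-fragment libraries lay above all 4 control libraries, and the wild-type fragment lay within the range of the empty vector. These values rest on 349 and 315 reads with the mutant fragment, 64 and 63 reads with the wild-type fragment, and 33 and 74 reads with the empty vector. Against the empty vector, the fitted log2 fold change on the RPKM + 1 scale was 2.36 (SE 0.20, 95% interval 1.84 to 2.89, limma adjusted p = 0.0557), and against the wild-type fragment it was 2.15 (SE 0.20, limma adjusted p = 0.0756), so neither passed 0.05. Against the mean of both controls, the contrast with most libraries behind it, Tnf rose by a log2 fold change of 2.26 (SE 0.18, 95% interval 1.80 to 2.71, limma adjusted p = 0.0307). That call was lost when genes of low level were kept in the fit (limma adjusted p = 0.110). When each library was left out in turn, the log2 fold change ran from 2.12 to 2.61 against the empty vector. It ran from 1.96 to 2.33 against the wild-type fragment and from 2.14 to 2.38 against the mean of both controls. Such fits leave 1 library in an arm, so only the size is given. Summed markers of other cell types also differed between the constructs, with no test. The summed level of 8 neutrophil markers was 219 and 6.16 RPKM with the mutant fragment, 1.13 and 1.32 RPKM with the wild-type fragment, and 2.06 and 2.82 RPKM with the empty vector. Of the 219 RPKM, 218.6 were Lcn2, which other cells also express, and S100a9, Mpo and Ltf were at 0 throughout. The sum of 5 monocyte markers was 0.113 and 0.284 RPKM with the mutant fragment and 2.22 to 11.3 RPKM in the 4 controls, and Plac8 was at 0. Of the control sums, F13a1 alone made up 2.13 to 11.2 RPKM. The sum of 4 endothelial markers, of which Cldn5 was at 0, was 8.58 and 12.2 RPKM with the mutant fragment and 18.95 to 44.4 RPKM in the controls. Nearly all of it was Flt1, at 8.53 and 12.1 RPKM with the mutant fragment and 18.9 to 44.4 RPKM in the controls. That of 5 oligodendrocyte markers, with Mog at 0, was 1.69 and 3.40 RPKM with the mutant fragment and 4.03 to 4.62 RPKM in the controls. Most of it was Cnp, at 1.44 and 3.23 RPKM with the mutant fragment and 3.46 to 4.08 RPKM in the controls. A set of 5 fibroblast markers summed to at most 0.138 RPKM in any BV2 library. These sums thus rest mostly on single genes. The part of these differences in the Tnf values was not tested.

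The 7 genes lie apart from one another in the genome, on 6 chromosomes, so their values share no reads. In the mm9 build Tnf occupies chr17:35336312-35338952 on the minus strand, in a cluster with Lta and Ltb, the genes of 2 related cytokines. Their start sites lie at -3344 bases and 7500 bases from that of Tnf, where a minus sign means upstream. Lta had 0.317 and 0.067 RPKM with the mutant fragment, 0.110 and 0.287 RPKM with the wild-type fragment, and 0.065 and 0.207 RPKM with the empty vector. Ltb had 0.134 and 0.170 RPKM with the mutant fragment, 0.139 and 0 RPKM with the wild-type fragment, and 0.577 and 0.131 RPKM with the empty vector. Of the 3 cytokine genes of the cluster, Tnf was the one expressed above 1 RPKM in BV2 cells. Another neighbour, Lst1, with its start at 13567 bases, had 7.11 and 12.2 RPKM with the mutant fragment. It had 4.82 and 3.85 RPKM with the wild-type fragment, and 6.58 and 2.96 RPKM with the empty vector. Lst1 thus also lay above all 4 control libraries, as did 12.3% of all genes.

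**Figure D1:**
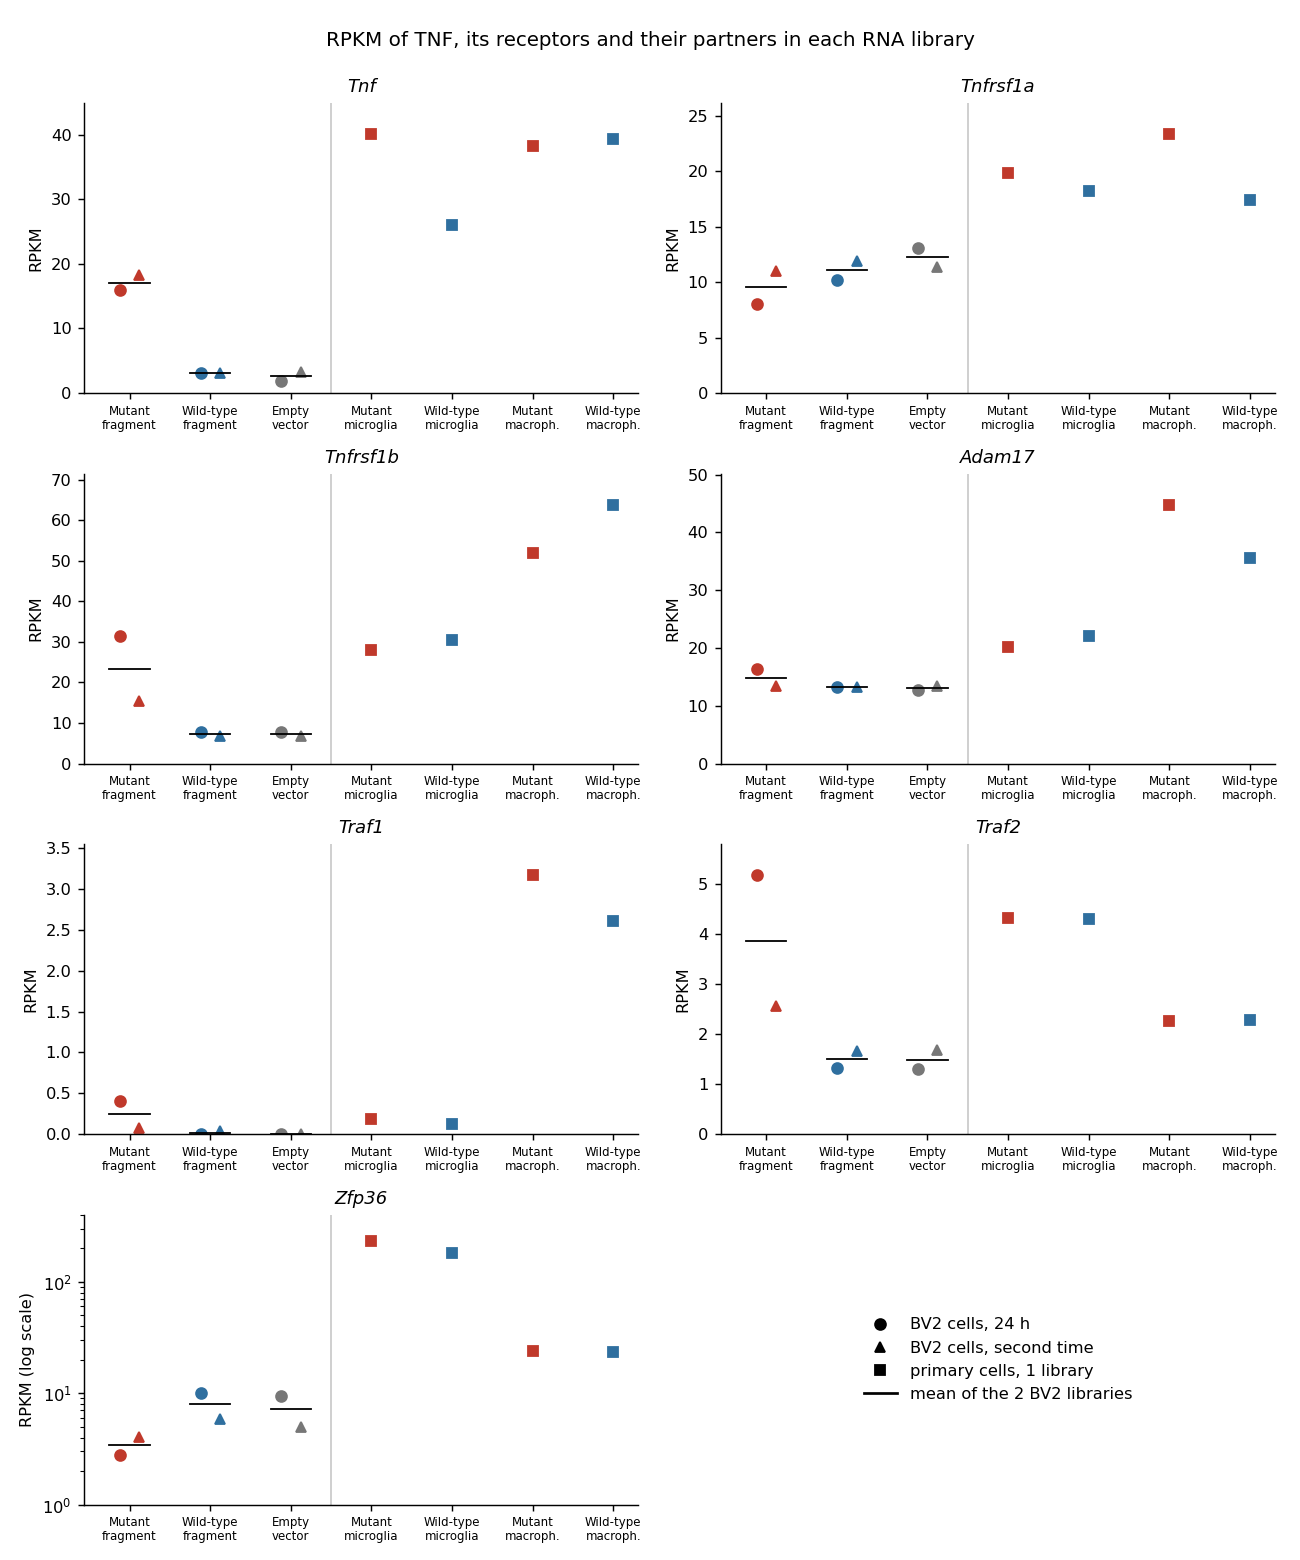
RPKM of each of the 7 genes (1 panel each, with a log axis for Zfp36 alone) in the 6 BV2 libraries at left and the 4 primary libraries at right. Circles are 24 h, triangles the second time, squares primary cells with 1 library each, and black lines the mean of 2 libraries. Tnf, Tnfrsf1b and Traf2 lie above all control libraries with the mutant fragment and Zfp36 lies below them, while Zfp36 reaches 230 and 181 RPKM in mutant and wild-type primary microglia.

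The promoter of Tnf is shown because the peaks of both C/EBP factors fell on it. C/EBPα and C/EBPβ are leucine zipper factors of the myeloid lineage, and PU.1 is an ETS factor that, with them, opens macrophage enhancers. The sequence is the 250 bases upstream of the start in GRCm38.p6 (RefSeq, chr17:35202008-35202257, minus strand, written 5′ to 3′). Capitals mark matches, on either strand, to the C/EBP half-site pair TTNNGNAA, to the PU.1 core GAGGAA and to the TATA box TATAAA.

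Tnf: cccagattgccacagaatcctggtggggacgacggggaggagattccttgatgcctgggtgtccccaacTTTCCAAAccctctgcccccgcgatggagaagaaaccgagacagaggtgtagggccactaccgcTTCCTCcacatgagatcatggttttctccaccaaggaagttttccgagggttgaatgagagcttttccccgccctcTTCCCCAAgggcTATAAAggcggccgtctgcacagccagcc

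Counted from the start, the C/EBP matches begin at -181 and -41, both on the reverse strand, the PU.1 core at -117 on the reverse strand and the TATA box at -29. None of these matches overlaps another. The C/EBP motif occurs in 36.8% of the 32851 promoter windows of the same 250 bases, the PU.1 core in 23.3% and the TATA box in 12.4%, so these matches are common, and they describe the sequence only. The NF-kB kappa-B consensus, present in 3.90% of windows, had no match in this window.

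A C/EBPβ peak stood on this promoter with every construct. In mm9 it ran from -290 to -146 bases of the Tnf start with the mutant fragment, from -296 to -156 with the wild-type fragment and from -303 to -155 with the empty vector. A C/EBPα peak covered -290 to -146 with the mutant fragment and -300 to -164 with the empty vector, while the wild-type fragment had its nearest C/EBPα peak over the start itself, from -31 to 99. The C/EBP match at -181 thus has a distance inside the C/EBPβ peaks of all 3 constructs, with the 2 builds not aligned to each other. The deposited lists give each peak a place and no height that could be compared, so the same peak with and without the mutant fragment does not show equal binding.

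Around Tnf, C/EBPα peaks were shared least, while the order of PU.1 and C/EBPβ peaks depended on the list. With the mutant fragment, 7 of 10 PU.1, 8 of 9 C/EBPβ and 1 of 3 C/EBPα peaks within 20 kb were seen with all 3 constructs. With the wild-type fragment these were 7 of 9, 8 of 11 and 1 of 6, and with the empty vector 7 of 13, 8 of 9 and 1 of 5. A PU.1 peak centred at -524 bases with the mutant fragment had a partner at -549 bases with the empty vector and none with the wild-type fragment. The empty vector had a further PU.1 peak centred at -95, over the promoter, that overlapped no peak of the other constructs. Within 20 kb of Tnf there were 10 PU.1 peaks with the mutant fragment, 9 with the wild-type fragment and 13 with the empty vector. None of the 10 was seen with the mutant fragment alone. The whole PU.1 lists ran in the same order, with 64744 peaks for the mutant fragment, 53835 for the wild-type fragment and 71846 for the empty vector. An H3K4me2 region covered the start in all 3 lines and was 4632 bases wide with the mutant fragment, 3825 with the wild-type fragment and 4434 with the empty vector. The single peak of any antibody near Tnf that the mutant fragment had alone was an H3K4me2 region of 645 bases centred 8678 bases downstream, beyond the start of Ltb. Within its bounds all 3 constructs had a C/EBPβ peak, centred at 8855 bases with the mutant fragment, 8857 with the wild-type fragment and 8832 with the empty vector. The wild-type fragment alone had a C/EBPα peak there, centred at 8900 bases.

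**Figure D2:**
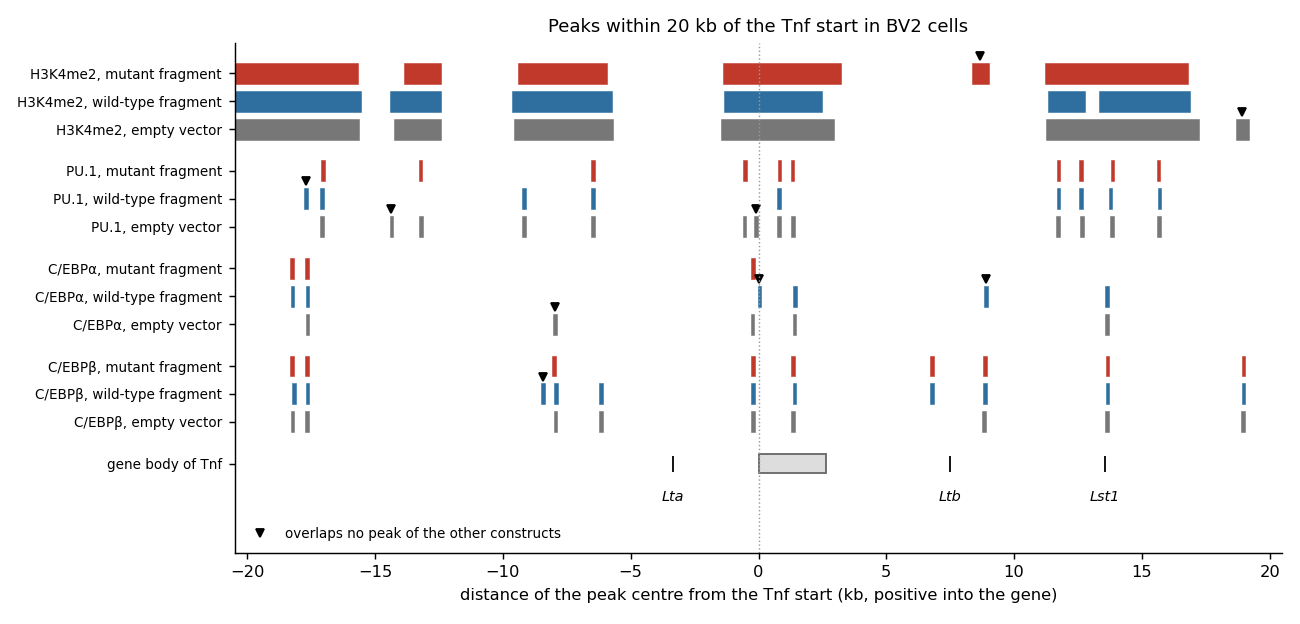
Peaks around the Tnf start in BV2 cells, by antibody and construct, along the distance from the start in kb (1 library per row; bars are peaks, with a minimum drawn width of 0.14 kb). Triangles mark peaks that overlap no peak of the same antibody in the other constructs, and ticks mark starts of neighbouring genes. The C/EBPβ peak just upstream of the start is present in all 3 rows, and no PU.1 or C/EBP peak of the mutant fragment carries a triangle.

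The 2 receptor genes behaved differently from each other. Tnfrsf1b had 31.5 and 15.3 RPKM with the mutant fragment, against 7.87 and 6.73 RPKM with the wild-type fragment and 7.89 and 6.82 RPKM with the empty vector. Both mutant-fragment libraries lay above all controls, the 24 h library by far the most. The log2 fold change was 1.47 against the empty vector (SE 0.26, limma adjusted p = 0.165) and 1.47 against the mean of both controls (SE 0.23, limma adjusted p = 0.0899), so the difference did not pass. Against that mean the log2 fold change ran from 1.07 to 1.87 with each library left out. Tnfrsf1a had 8.06 and 11.1 RPKM with the mutant fragment, 10.2 and 11.9 RPKM with the wild-type fragment, and 13.1 and 11.4 RPKM with the empty vector. These groups overlapped, and the interval of its log2 fold change against the empty vector ran from -0.88 to 0.20 (limma adjusted p = 0.491), with values of -0.59 to -0.09 when each library was left out.

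RPKM is per transcript length, so the levels of the receptors can be set against each other within a library. The Tnfrsf1b level was 3.91 times that of Tnfrsf1a at 24 h and 1.39 times at the second time with the mutant fragment. In the wild-type fragment line it was 0.771 and 0.564 times, and in the empty vector line 0.603 and 0.597 times. Thus Tnfrsf1b was the more abundant receptor mRNA with the mutant fragment at both times, and Tnfrsf1a in all 4 control libraries. In primary cells Tnfrsf1b was the more abundant in every library, at 1.41 and 1.68 times Tnfrsf1a in mutant and wild-type microglia and at 2.22 and 3.66 times in mutant and wild-type macrophages. This ratio was chosen after the levels were seen and was not tested.

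The receptor promoters also differed in their C/EBP peaks. At Tnfrsf1a (mm9 chr6:125299741-125312501, plus strand) all 6 C/EBP libraries had a peak across the start itself. The C/EBPα peak was centred at 2 bases with the mutant fragment, 8 with the wild-type fragment and 7 with the empty vector, and the C/EBPβ peak at 15 bases with the mutant fragment, 0 with the wild-type fragment and -19 with the empty vector. Its upstream 250 bases in GRCm38.p6 (RefSeq, chr6:125349473-125349722, plus strand) are shown because these peaks were the most evenly shared of any at the 7 starts.

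Tnfrsf1a: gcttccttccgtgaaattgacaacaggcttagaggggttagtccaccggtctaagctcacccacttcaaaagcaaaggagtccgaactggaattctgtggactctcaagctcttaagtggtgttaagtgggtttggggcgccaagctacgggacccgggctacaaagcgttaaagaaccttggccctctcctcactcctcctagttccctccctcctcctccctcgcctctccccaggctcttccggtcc

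No capitals appear because none of TTNNGNAA, GAGGAA and TATAAA occurs in it on either strand. The peaks reached up to 87 bases past the start, and those bases were not searched.

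At Tnfrsf1b (mm9 chr4:144802271-144836773, minus strand) the C/EBP peaks lay inside the gene. C/EBPα and C/EBPβ peaks were centred 414 and 463 bases past the start with the mutant fragment, 452 and 437 bases past it with the wild-type fragment, and 455 and 432 bases past it with the empty vector. A second pair near 5.7 kb was likewise present with every construct, as was a PU.1 peak there. The mutant fragment alone had PU.1 peaks at 3621 and 12983 bases past the start, both inside the gene. The wild-type fragment had none of its own, and the empty vector alone had PU.1 peaks at -11314 and 7005 bases. The mutant and wild-type fragments each had 1 broad H3K4me2 region over the start, of 8550 and 8270 bases, where the empty vector had separate regions centred at 1484 and 6201 bases.

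Among the signalling adaptors, Traf2 was higher with the mutant fragment and Traf1 was close to undetected. Traf2 had 5.17 and 2.55 RPKM with the mutant fragment, 1.32 and 1.67 RPKM with the wild-type fragment, and 1.30 and 1.67 RPKM with the empty vector. The mutant-fragment libraries were above every control, at 24 h more than at the second time. The log2 fold change against the empty vector was 0.92 (SE 0.31, limma adjusted p = 0.286), so it did not pass. It was 0.42 without the 24 h library of the mutant fragment and 1.42 without the second-time one. Traf1 had 13 and 2 reads with the mutant fragment, which is 0.410 and 0.080 RPKM, against 0 and 1 read with the wild-type fragment and no read with the empty vector. It reached 1 RPKM in no BV2 library, so it was not tested there, and no fold is given.

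Adam17, the gene of the sheddase, differed little between constructs. It had 16.3 and 13.3 RPKM with the mutant fragment, 13.2 and 13.2 RPKM with the wild-type fragment, and 12.7 and 13.4 RPKM with the empty vector. The groups overlapped, and the 95% interval of the log2 fold change against the empty vector was -0.29 to 0.62 (limma adjusted p = 0.681), with values of 0.015 to 0.32 when each library was left out.

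Zfp36, whose product shortens the life of Tnf mRNA, was on the other side. It had 2.81 and 4.06 RPKM with the mutant fragment, 10.0 and 5.87 RPKM with the wild-type fragment, and 9.50 and 4.99 RPKM with the empty vector. Both mutant-fragment libraries lay below all 4 control libraries, which differed between the times by nearly as much. The log2 fold change was -0.85 against the empty vector (SE 0.34, limma adjusted p = 0.336) and -0.92 against the mean of both controls (SE 0.30, limma adjusted p = 0.200), so no difference passed. Against the empty vector it was -0.27 without the 24 h library of the mutant fragment and -1.43 without the second-time one. In the same library Tnf was at 5.65 and 4.50 times the level of Zfp36 with the mutant fragment. It was at 0.302 and 0.529 times in the wild-type fragment line, and at 0.195 and 0.662 times in the empty vector line. In primary cells it was at 0.17 and 0.14 times in mutant and wild-type microglia, and at 1.59 and 1.69 times in mutant and wild-type macrophages. This ratio was not tested.

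Counted together, 0 of the 6 genes tested passed in limma against the empty vector, where 0.087% of 10350 genes passed, and 3 had an unadjusted p under 0.05 (Tnf, Tnfrsf1b and Traf2), beside 15.3% of all genes. Against the wild-type fragment 0 of 6 passed, beside 0.0676% of genes, and 4 had an unadjusted p under 0.05, beside 15.9%. Against the mean of both controls 1 of 6 passed, beside 0.348% of genes, and 4 had an unadjusted p under 0.05, beside 20.2%. Tnf, Tnfrsf1b and Traf2 lay above all 4 controls, as did 12.3% of genes, and Zfp36 lay below all 4, as did 14.5%. Tnf and Tnfrsf1b were at least 2-fold above the empty vector on the RPKM + 1 scale at both times, as were 1.18% of genes. The genes were chosen with earlier results of these data known, so these counts are a description.

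For the wild-type fragment, the interval against the empty vector included 0 for each of the 6 genes tested. Its log2 fold changes against the empty vector lay between -0.14 (Tnfrsf1a) and 0.22 (Tnf) for the 6 genes, with 0 passing in limma and none at an unadjusted p under 0.05, where 0.638% of genes had one. The intervals are wide: that of Tnf ran from -0.31 to 0.75 and that of Zfp36 from -0.75 to 1.02. Between the times, 0 of the 6 passed in limma (0 of 10350 genes, with 27.2% at an unadjusted p under 0.05), and Tnfrsf1b had the change of greatest size, -0.46 at the second time against 24 h (SE 0.21).

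**Figure D3:**
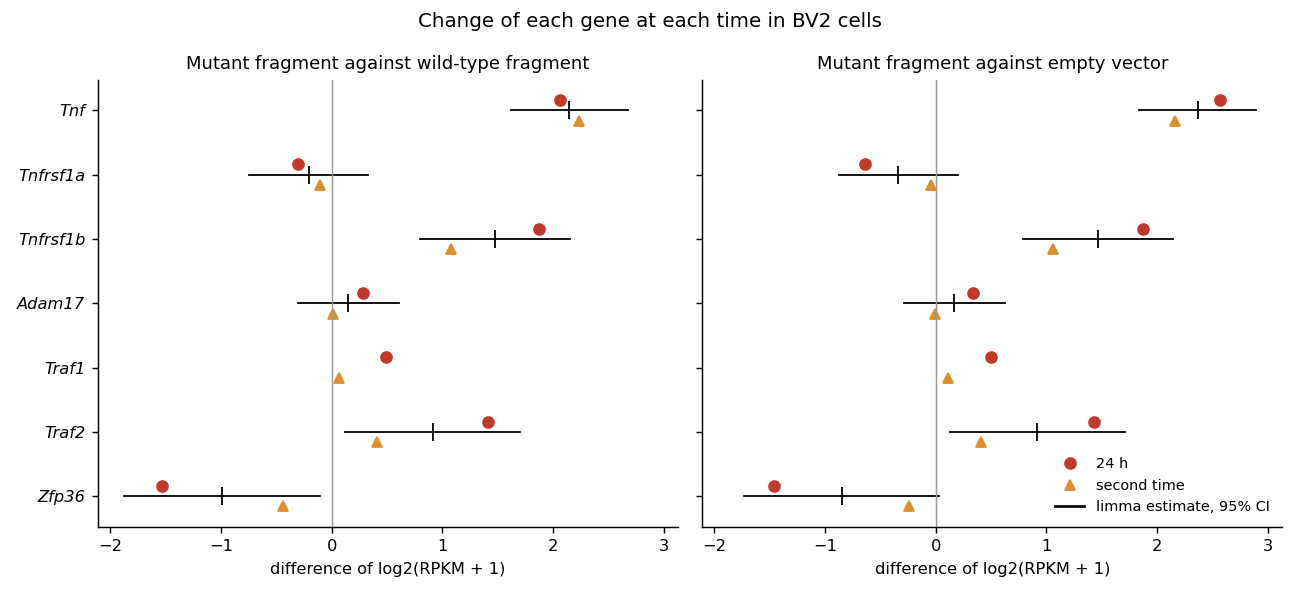
Differences of log2(RPKM + 1) of the mutant fragment against the wild-type fragment (left) and the empty vector (right) at 24 h (circles) and at the second time (triangles), with the limma estimate and its 95% interval (black). Tnf differs by about as much at both times, whereas Tnfrsf1b, Traf2 and Zfp36 lie farther from 0 at 24 h, and Traf1 has no estimate.

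Near Traf2 the mutant fragment had more peaks of its own than near any other of the 7 genes, with 1 H3K4me2 region, 2 PU.1 peaks and 3 C/EBPβ peaks. In mm9 the gene lies at chr2:25373502-25402414 on the minus strand. With the mutant fragment alone, an H3K4me2 region of 791 bases (chr2:25389709-25390499) stood 12310 bases inside the gene. It held a PU.1 peak at 12251 bases and a C/EBPβ peak at 12411 bases, which were also seen with the mutant fragment alone. Such a region, with PU.1 and C/EBPβ peaks within an H3K4me2 region and all 3 absent from the other constructs, occurred 20 times in the genome and within 20 kb of the start of 0.0386% of the 10350 genes tested. The rule was written after the Traf2 region was seen, so this share is a description.

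Other peaks near Traf2 differed as well. The mutant fragment alone had C/EBPβ peaks at -2830 and 7631 bases and a PU.1 peak at -10597 bases, which lies nearer to the start of the neighbouring gene Edf1, at -11006 bases. The wild-type fragment alone had C/EBPβ peaks at -2669 and 938 bases and C/EBPα peaks at -10804 and -5211 bases. With the mutant fragment, the H3K4me2 region nearest to the Traf2 start was 2570 bases wide, centred at 1561, and did not reach the start. It covered the start with the wild-type fragment (2452 bases, centred at 442) and with the empty vector (2388 bases, centred at 461).

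**Figure D4:**
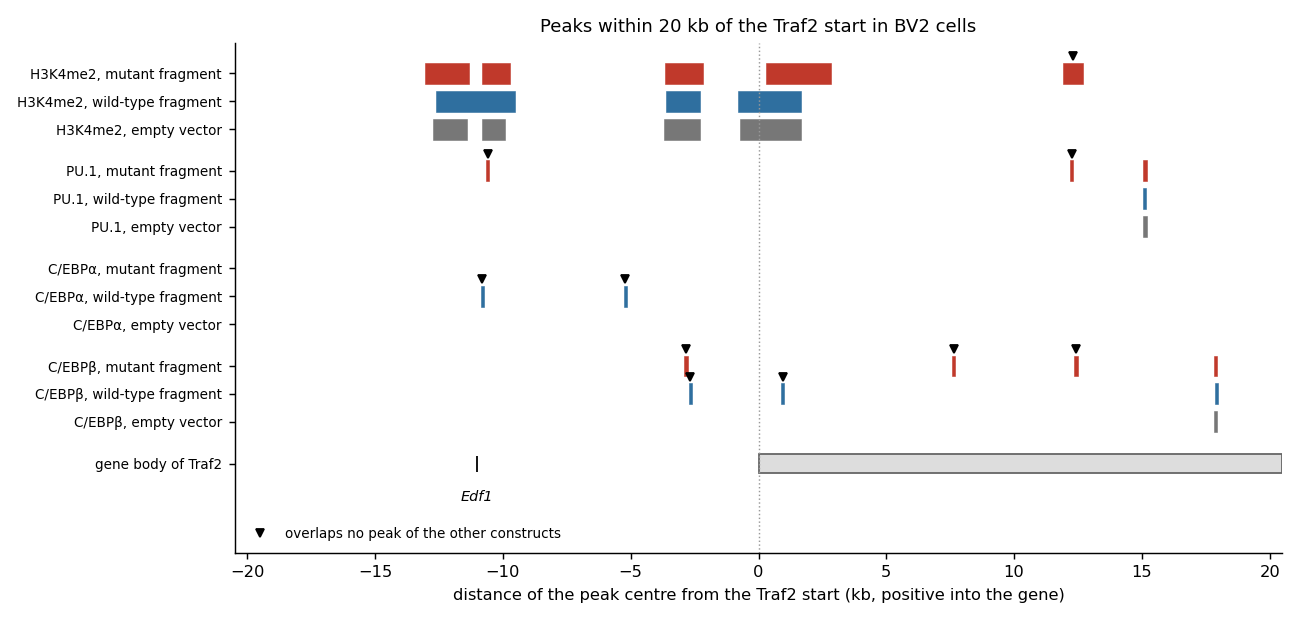
Peaks around the Traf2 start in BV2 cells, drawn as for Tnf, with 1 library per row and the distance from the start in kb. The 3 marked bars near 12.3 kb are the H3K4me2 region, the PU.1 peak and the C/EBPβ peak of the mutant fragment, and the rows of the wild-type fragment and the empty vector are blank there.

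Over all 7 genes, 45 PU.1 peaks of the mutant fragment lay within 20 kb of a start. Of these, 7 (15.6%) overlapped no peak of the other constructs, beside 19.2% of its PU.1 peaks genome-wide, and they lay near Tnfrsf1b, Traf1, Traf2 and Zfp36. These are 4 of the 7 genes, beside 37% of the genes tested in BV2 cells. Of its 36 C/EBPβ peaks 6 (16.7%) were its own, beside 13.6% genome-wide, of its 33 H3K4me2 regions 2 (6.06%), beside 12.7%, and of its 11 C/EBPα peaks 0, beside 13.2% (0 of 7 genes, beside 6.65%). The wild-type fragment had 6 of 41 PU.1 peaks of its own (14.6%, beside 11.6% genome-wide), 6 of 41 C/EBPβ peaks (14.6%, beside 35.7%), 3 of 34 H3K4me2 regions (8.82%, beside 5.69%) and 7 of 22 C/EBPα peaks (31.8%, beside 44.0%). The empty vector had 11 of 52 PU.1 peaks of its own (21.2%, beside 24.0%), 1 of 30 C/EBPβ peaks (3.33%, beside 9.33%), 1 of 31 H3K4me2 regions (3.23%, beside 7.05%) and 3 of 17 C/EBPα peaks (17.6%, beside 16.4%).

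By gene, 3 of 7 had a C/EBPβ peak seen with the mutant fragment alone (Tnfrsf1a, Tnfrsf1b and Traf2), beside 28.1% of genes tested in BV2 cells, and 2 of 7 such an H3K4me2 region (Tnf and Traf2), beside 17.5%. With 1 library per construct there is no test, and a peak missing from 1 list can be a peak just under the caller's limit. The lists also differed in size and in the share of reads in peaks that their headers give. The C/EBPβ list held 47893 peaks with the mutant fragment (approximate efficiency 24.3%), 69522 with the wild-type fragment (23.0%) and 35964 with the empty vector (8.09%). The C/EBPα list held 9117 peaks with the mutant fragment, 19732 with the wild-type fragment and 11645 with the empty vector. The part of these differences in any peak named here was not tested.

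The remaining genes had mixed patterns of peaks. At Zfp36 (chr7:29161803-29164247, minus strand) the mutant fragment alone had PU.1 peaks at 748 and 1120 bases, within the gene. The wild-type fragment alone had 1 at -1244 bases, and the empty vector alone had 3, at 3146, 3614 and 3958 bases, past the end of the gene. C/EBPβ peaks centred at -6972, -4102, -1848 and 6226 bases with the mutant fragment were present with all 3 constructs. At Traf1 (chr2:34798778-34817292, minus strand) the mutant fragment alone had a PU.1 peak at 3860 bases. A C/EBPβ peak near 3.1 kb was present with every construct, although the gene gave almost no reads. At Adam17 (chr12:21329370-21379493, minus strand) a C/EBPβ peak near 3.2 kb was common to all, while a C/EBPα peak at the same place was missing with the mutant fragment and present with the wild-type fragment and the empty vector.

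Genes around this core were examined in 7 lists, and 1 gene of these lists passed against the empty vector. Calls depended on single libraries: 9 of all genes passed in this contrast, against 1564 without the 24 h and 3400 without the second-time library of the mutant fragment, so calls gained in those fits are not given gene by gene for the lists. Against the empty vector, 1 of 11 tested signal inhibitors passed in limma, as higher, and the median log2 fold change was 0.29, beside a median of -0.001 over all genes. Nfkbia, which encodes the NF-kB inhibitor IkBα and is itself induced by NF-kB, had 14.1 and 21.3 RPKM with the mutant fragment, 1.93 and 3.37 RPKM with the wild-type fragment, and 2.00 and 3.18 RPKM with the empty vector. Its log2 fold change was 2.37 (SE 0.16, limma adjusted p = 0.0396). The call was lost with a pseudocount of 5 (0.0689), without a filter on low values (0.135), without the time term as replicate block (0.110) and without the second-time library of the empty vector (0.0564). Tnip1, which encodes a partner of the ubiquitin-editing enzyme A20, had 16.4 and 15.1 RPKM with the mutant fragment, 3.47 and 2.48 RPKM with the wild-type fragment, and 3.26 and 2.72 RPKM with the empty vector (log2 fold change 2.07, SE 0.17, limma adjusted p = 0.0516). Tnfaip3, the A20 gene, had 3.33 and 4.38 RPKM with the mutant fragment, 3.53 and 1.72 RPKM with the wild-type fragment, and 2.95 and 1.34 RPKM with the empty vector, with overlap at 24 h. Nfkbib, another IkB gene, had 10.9 and 5.28 RPKM with the mutant fragment against 2.90 to 4.24 RPKM in the 4 controls. Its log2 fold change was 0.87 (SE 0.35), and 0.31 to 1.43 with each library left out.

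Of 28 listed genes known to be induced by TNF, 21 could be tested and 0 passed in limma against the empty vector. Their median log2 fold change was 0.62, 19 of 21 had a positive sign, and 13 of 21 lay above all 4 control libraries, beside 12.3% of all genes. The list was drawn up with earlier results of these data known, so the count is a description. Il1b, the gene of the cytokine interleukin-1β, had 9.73 and 10.1 RPKM with the mutant fragment, 1.73 and 1.38 RPKM with the wild-type fragment, and 1.50 and 1.90 RPKM with the empty vector (log2 fold change 2.02, SE 0.18, limma adjusted p = 0.0594). Nfkbiz, which encodes an atypical IkB protein, had 26.7 and 7.36 RPKM with the mutant fragment, and 0.909 to 1.24 RPKM in the 4 control libraries. Relb, an NF-kB subunit gene, and Bcl3, a nuclear IkB gene, had log2 fold changes of 1.37 (SE 0.27) and 1.35 (SE 0.21), and both mutant-fragment libraries of each lay above all controls.

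In the other 5 lists 0 genes passed in limma against the empty vector, and the medians lay between -0.33 and 0.15. Of 11 tested receptors of the TNF superfamily (median 0.15), Cd40, a costimulatory receptor gene, had 9.92 and 3.92 RPKM with the mutant fragment against 0.900 to 2.49 RPKM in the 4 controls (1.54 on the log2 scale over the empty vector, with SE 0.22). Fas, the gene of a death receptor, had 3.16 and 2.02 RPKM with the mutant fragment against 0.054 to 0.515 RPKM in the controls (1.38, SE 0.18). Tnfrsf12a had a log2 fold change of 0.80, which ran from 0.25 to 1.35 with each library left out, and Tnfrsf11a, the RANK gene, of -0.50 (-0.74 to -0.26), with overlap of the groups for the second. Of 17 superfamily ligands 3 could be tested (median -0.33), with Tnfsf13b, the BAFF gene, at -0.84 (SE 0.29) and Tnfsf9 at 0.44 (SE 0.19). With each library left out these ran from -1.25 to -0.43 and from 0.25 to 0.63.

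In the receptor signalling complex (26 tested, median 0.03), the changes of greatest size were negative. Xiap, Traf6 and Birc2, which encode ubiquitin ligases, had log2 fold changes of -0.92 (SE 0.28), -0.61 (SE 0.16) and -0.61 (SE 0.16), and both mutant-fragment libraries of each lay below all controls. In this list 4 of 26 genes lay below all controls, beside 14.5% of all genes, so the share is near that of all genes. Above all controls lay 2 of 26, beside 12.3%. Mlkl, the gene of the necroptosis effector, had 0.56 (SE 0.21). With each library left out, Xiap ran from -1.33 to -0.52 and Mlkl from 0.29 to 0.82. Among genes of TNF shedding (7 tested, median -0.23), Rhbdf2, whose product carries ADAM17 to the cell surface, had 7.42 and 5.54 RPKM with the mutant fragment against 2.48 to 3.90 RPKM in the controls (0.79, SE 0.16). Furin, the gene of the protease that activates ADAM17, had 5.60 and 3.67 RPKM with the mutant fragment, 14.2 and 7.63 RPKM with the wild-type fragment, and 17.2 and 6.37 RPKM with the empty vector (-1.06, SE 0.24). Adam10 (-0.46) and Frmd8 (-0.35) had smaller values, which ran from -0.64 to -0.28 and from -0.58 to -0.12 with each library left out.

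Among genes of TNF mRNA control (18 tested, median -0.06), Zc3h12a, which encodes the RNase regnase-1, had 4.87 and 5.65 RPKM with the mutant fragment against 0.790 to 1.66 RPKM in the controls (1.59, SE 0.23). Zfp36l1, a paralog of Zfp36, had 2.42 and 5.33 RPKM with the mutant fragment, 19.7 and 7.21 RPKM with the wild-type fragment, and 17.7 and 5.80 RPKM with the empty vector (-1.28, SE 0.62). Its value was -0.13 without the 24 h library of the mutant fragment and -2.42 without the second-time one. Cnot7, a deadenylase gene, and Mapkapk3, a kinase gene, had log2 fold changes of -0.56 (SE 0.19) and -0.56 (SE 0.19), with Cnot7 at -0.75 to -0.37 when each library was left out.

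**Figure D5:**
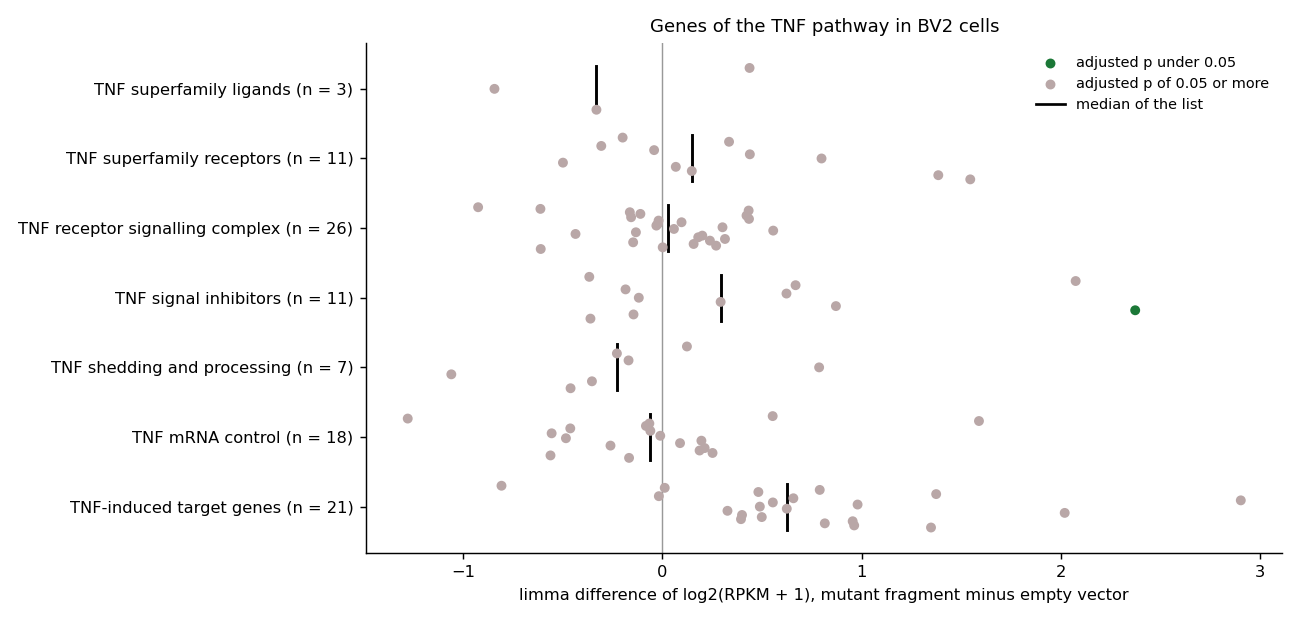
Limma differences of log2(RPKM + 1), mutant fragment minus empty vector, for each tested gene of 7 lists around TNF (points, 1 per gene), with the list's median as a black line. The 1 green point is Nfkbia, the only gene of these lists with an adjusted p under 0.05 in this contrast, and the TNF-induced targets have the highest median (0.62).

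Across all 10 RNA libraries, the genes whose log2(RPKM + 1) ran most like that of Tnf were Rapgef2 (Pearson r 0.990), the Toll-like receptor gene Tlr2 (0.968), the kinase gene Syk (0.966), Id2 (0.962) and Prdm4 (0.961), of 10213 genes compared. Over the 6 BV2 libraries they were Ikbkb, which encodes a kinase of NF-kB signalling (0.996), Rtn4 (0.993), Cdipt (0.989), Syk (0.988) and Clec4n (0.988), of 9436 genes. Ikbkb varied little, between 4.79 and 6.61 RPKM. Over the BV2 libraries r with Tnf was 0.87 for Tnfrsf1b, 0.85 for Traf2, 0.66 for Adam17, -0.66 for Tnfrsf1a and -0.83 for Zfp36. Over all 10 libraries it was 0.93, 0.71, 0.78, 0.62 and 0.57 in the same order, so Tnfrsf1a and Zfp36 changed sign. The BV2 points share 3 constructs and 2 times, so each r over them restates the difference of the mutant fragment and is a description. An r over all 10 libraries also carries the higher Tnf level of the primary cells and is likewise a description.

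In primary cells Tnf was well expressed in both cell types. Tnf had 40.1 RPKM in mutant and 25.9 RPKM in wild-type microglia, and 38.2 RPKM in mutant and 39.4 RPKM in wild-type macrophages. Ordered by level, mutant microglia and both macrophage libraries lay within 2 RPKM of one another, followed by wild-type microglia, then by BV2 cells with the mutant fragment (mean 17.1 RPKM), with the wild-type fragment (3.07) and with the empty vector (2.58), of which the last 2 overlapped. Primary and BV2 libraries differ in depth and source, and their levels were not tested against each other.

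The cell types differed most in Zfp36. It had 230 and 181 RPKM in mutant and wild-type microglia, against 24.1 and 23.3 RPKM in mutant and wild-type macrophages (log2 fold change 3.05, SE 0.26, limma adjusted p = 1.03e-29). Traf1 had 0.180 and 0.126 RPKM in mutant and wild-type microglia, against 3.17 and 2.60 RPKM in mutant and wild-type macrophages (-1.75 on the log2 scale). It entered the fit through the macrophage libraries only, so a difference was built in, and its test is not given. Traf2 had 4.32 and 4.29 RPKM in mutant and wild-type microglia, against 2.26 and 2.28 RPKM in mutant and wild-type macrophages (0.70, limma adjusted p = 0.0133). The Traf2 call was lost with a pseudocount of 5 (limma adjusted p = 0.0519). It was also lost without either microglial library, in fits that had no genotype term and 1 microglial library left.

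Tnfrsf1b had 28.0 and 30.6 RPKM in mutant and wild-type microglia, against 51.9 and 63.8 RPKM in mutant and wild-type macrophages (-0.95, limma adjusted p = 6.34e-04). Adam17 had 20.1 and 22.1 RPKM in microglia and 44.8 and 35.6 RPKM in macrophages, mutant before wild type (-0.89, limma adjusted p = 0.00142), and its call was lost without a filter on low values (0.0660). Tnf (-0.26) and Tnfrsf1a (-0.08) did not pass. Leaving Traf1 aside, 4 of 6 passed, beside 67.3% of 10687 genes, so the share is near that of all genes. The median over all genes was -0.53, and quantile scaling turned the sign of Tnf (0.77), Tnfrsf1a (0.91), Tnfrsf1b (0.10) and Adam17 (0.15), while Zfp36, Traf1 and Traf2 kept theirs. Under that scaling, which moved the median to 0.009, Tnf (limma adjusted p = 0.0166) and Tnfrsf1a (0.00215) passed as higher in microglia and Tnfrsf1b and Adam17 did not pass. With 1 residual degree of freedom limma gave every gene the same SE of 0.26, so these p-values rest on a spread shared by all genes.

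Between mutant and wild-type primary cells none of the 7 genes passed. Taking microglia and macrophages together, 0 of 7 passed in limma, beside 0.337% of genes, and none had an unadjusted p under 0.05, beside 2.65%. The log2 fold changes lay between -0.21 (Tnfrsf1b, interval -0.72 to 0.31) and 0.28 (Tnf, interval -0.23 to 0.80). Within microglia, Tnf was 0.61 higher on the log2 scale in the mutant library than in the wild-type library, a step of at least 1.5-fold that 0.954% of genes took upward, and within macrophages the difference was -0.04. There is 1 library on each side, so neither difference has a replicate check. The summed level of 8 neutrophil markers was 571 RPKM in mutant and 1788 RPKM in wild-type microglia, and 215 RPKM in mutant and 428 RPKM in wild-type macrophages. The part of such cells in the Tnf values was not tested.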

How the data were processed

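RNA libraries were aligned with STAR 2.0.3e to mm9, with HOMER also named, per the submitters' processing notes, and the deposited table gives RPKM per RefSeq transcript, made by the authors. The deposited values times transcript length gave whole reads within 0.1 read, which shows the implied depth. The 7 genes are the rows with their symbols. Where a symbol had several rows, the row with the highest mean over the libraries was used. Transcripts under 200 bases were left out of the correlations with Tnf and of the check of same-time deviations below. They stayed in the fits, in the adjustment and in the shares of all genes. Values were taken as log2(RPKM + 1), which understates the change of low genes, and genes with 1 RPKM in at least 2 libraries were tested with limma 3.58.1 in R 4.3.3, Benjamini-Hochberg adjusted over all of them, with a threshold of 0.05. The BV2 fit had terms for construct and time, which leaves 2 residual degrees of freedom, and the 2 times stand in for replicates. The primary fit had terms for cell type and genotype. The labels do not say that the 2 BV2 libraries of a construct came from separate transductions, so p-values measure the spread between these libraries only. Deviations of same-time libraries correlated across 9961 genes, and the time term is the block. The r was 0.90 between the wild-type fragment and the empty vector. With the mutant fragment it was 0.33 for the wild-type fragment and 0.22 for the empty vector. The time term thus follows the mutant fragment less closely than the controls, and what it leaves over enters the spread used for every BV2 contrast. Intervals cover this spread only.

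Peaks were called per library with HOMER findPeaks at 4-fold over input and local background and p 1e-04, with a false discovery rate of 0.001 for the factors, per the file headers, on reads mapped with Bowtie, per the submitters' processing notes. The input library has a name from another macrophage source, per the file headers. The score column of the deposited lists is 1 throughout and was not used for ranking. A peak counted as a gene's where its centre lay within 20 kb of the start, and as shared at an overlap of 1 bp. Tags per list ran from 5.26 to 24.1 M (M, mega). Sequences are RefSeq's for GRCm38.p6, in which all 7 genes matched. Both scripts that test or overlap many features were tested on simulated data. Apart from the 7 genes, those named were the ones of each list that passed against the empty vector plus the 4 of greatest change with one sign at both times, and the 5 nearest to Tnf in correlation. The 7 genes, the lists and the tests were chosen with earlier results of these data known. Alternatives were other pseudocounts, no filter, quantile scaling, the longest transcript, an intensity trend, no time term, each library left out, and other windows and overlaps.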

Additional observations from a re-analysis of the deposited data

Results flagged for a closer look

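Tnf had 40.1 RPKM in mutant and 25.9 RPKM in wild-type microglia, and 38.2 RPKM in mutant and 39.4 RPKM in wild-type macrophages. The difference of log2(RPKM + 1), mutant minus wild type, was 0.61 in microglia and -0.04 in macrophages. These are 0.65 apart and differ in sign, which is why they are listed here. The macrophage value is close to 0, so no change there is shown. The SE of 0.26 that limma gave is for the genotype difference over both cell types, so it measures neither value. There is 1 library per group, and the difference between the cell types was not tested.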

How the results depend on the processing

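The count of the 7 genes called moved with single libraries. It was 0 against the empty vector, 1 with the longest transcript per symbol (Tnf), and 0 to 4 with each library left out. Against the wild-type fragment it was 0, and 1 to 4 with each library left out. Against the mean of both controls it was 1, fell to 0 with no filter, and was 1 to 4 with each library left out. The 4 came without the second-time library of the mutant fragment, when 3400 to 3794 genes passed. In microglia against macrophages, the fits with a library left out had no genotype term, and Traf1 was tested only in those without a microglial library. Their counts are therefore not set beside the 5 of the main fit. Leaving out a library left 1 in its arm, which is then assumed to vary like the others. The values of single genes that changed sign were small or rested on the scaling. With quantile scaling they were -0.0049 for Traf2 with the wild-type fragment against the empty vector, -0.032 for Tnfrsf1a at the second time against 24 h, and, in microglia against macrophages, 0.77 for Tnf, 0.91 for Tnfrsf1a, 0.10 for Tnfrsf1b and 0.15 for Adam17. With each library left out, the log2 fold change of Adam17 between the mutant and the wild-type fragment ran from -0.0032 to 0.30. Between the wild-type fragment and the empty vector it ran from -0.025 to 0.46 for Tnf, -0.38 to 0.11 for Tnfrsf1a, -0.21 to 0.20 for Tnfrsf1b, -0.086 to 0.12 for Adam17, -0.25 to 0.27 for Traf2 and -0.20 to 0.47 for Zfp36. Between the times it ran from -0.14 to 0.034 for Adam17 and -0.30 to 0.21 for Traf2, and in microglia against macrophages from -0.56 to 0.045 for Tnf and -0.28 to 0.12 for Tnfrsf1a. The cause was not tested.

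With no replicate block (no time term), Tnf had limma adjusted p-values of 0.0694 against the empty vector, 0.0856 against the wild-type fragment and 0.0330 against the mean of both controls, and no call among the 7 genes changed, whereas that of Nfkbia was lost (0.110). The number of peaks seen with the mutant fragment alone was 2 for H3K4me2, 1 within 10 kb and 4 within 50 kb. It was 7 for PU.1, 4 within 10 kb and 20 within 50 kb, and 0 for C/EBPα, 1 within 50 kb. Traf1 reached the BV2 fits only without a filter and was left out of them. A stricter peak threshold was not run, since the deposited score is the same for every peak. Leaving out a primary library left no residual degrees of freedom for genotype, so its values within each cell type stand in the report. At 10.8 to 14.0 M reads, a gene such as Traf1, with 0 to 13 reads, cannot be compared between constructs.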
